A study of Mus musculus with 3 samples.

Results

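The genes described here serve protein folding in the endoplasmic reticulum (ER) and were measured in mouse kidney by microarray. They were chosen by name, as every probe set whose platform annotation gives exactly 1 gene symbol that is *Hspa5*, *Hsp90b1*, *Calr*, *Pdia4*, *Pdia6*, *Dnajb9*, *Sdf2l1*, *Creld2*, *Xbp1* or *Herpud1*. All 10 genes were found, with 21 probe sets out of 45101 on the array. Most of them are chaperones or folding enzymes, but *Xbp1* is a transcription factor and *Herpud1* a membrane protein of the degradation machinery. The cardio-renal syndrome group held 2 arrays and the uninephrectomy-alone group 1 array, all of kidney RNA from male C57BL/6J mice 16 weeks old. In the cardio-renal syndrome mice the abdominal aorta had been constricted below the renal arteries and 1 kidney was removed 2 weeks later. The other group is labelled as uninephrectomy alone (the series text names a sham operation as the alternative to banding), so both groups had lost 1 kidney, and the one left was collected 6 weeks later. There was no array from mice with both kidneys, and nothing in the labels tells if a sample came from 1 mouse or from several, so a p-value here covers the spread between these samples alone.

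The ER folds and modifies membrane and secreted proteins with the help of chaperones, lectins and disulphide isomerases. When unfolded proteins accumulate, the sensors IRE1, PERK and ATF6 start the unfolded protein response. IRE1 splices *Xbp1* mRNA and ATF6 is cut to an active form, and both products raise transcription of chaperone genes, whereas PERK acts through the translation factor eIF2alpha and ATF4. In kidney, tubule cells that make large amounts of membrane protein and reabsorb filtered protein express these chaperones at rest. ER stress has been studied there as part of tubular and glomerular injury.

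ATF6 and XBP1 act on chaperone genes through the ER stress element (ERSE), made of CCAAT and CCACG with 9 bases of any kind between them, or through the shorter ERSE-II, made of ATTGG and CCACG with 1 base between them. The 250 bases before the annotated start were searched for both on either strand, in RefSeq windows of GRCm38.p6 that matched 10 of the 10 genes. *Hspa5*, *Hsp90b1*, *Pdia6*, *Creld2* and *Calr* held an exact ERSE, 5 of 10 genes, against 0.113% of the 32851 windows in the table. *Herpud1* held the exact ERSE-II, against 0.0304% of windows. As these elements are already known for acting on chaperone genes, the counts describe the windows and test nothing. The UPRE letters TGACGTGG, another XBP1 motif, were in 0.563% of windows and in 0 of the 10. *Pdia4*, *Xbp1*, *Dnajb9* and *Sdf2l1* had none of the 3 motifs in these windows. The motifs do not overlap each other in the members. The CCAAT letters alone were in 9 of the 10 and in 33.8% of windows, and the CCACG letters alone in 8 and in 28.3%. The whole elements are shown because few other windows hold them, each read along its own direction with the fixed letters in capitals.
Hspa5 ERSE, gene strand, bases -65 to -47: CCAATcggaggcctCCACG
Hsp90b1 ERSE, gene strand, bases -212 to -194: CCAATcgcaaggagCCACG
Hsp90b1 ERSE, opposite strand, bases -107 to -89: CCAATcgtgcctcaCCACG
Pdia6 ERSE, gene strand, bases -98 to -80: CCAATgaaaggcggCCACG
Herpud1 ERSE-II, gene strand, bases -52 to -42: ATTGGgCCACG
Creld2 ERSE, opposite strand, bases -126 to -108: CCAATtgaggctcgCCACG
Calr ERSE, opposite strand, bases -162 to -144: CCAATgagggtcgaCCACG

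Of the genes carrying these elements, the windows of *Hspa5*, *Herpud1* and *Creld2* are shown whole, since they hold an element near the start, the short form, and an element in reverse. That of *Sdf2l1*, whose difference from the uninephrectomy array was the highest of the probe sets that passed the filter, is shown as a window without one. Capitals mark the element, and each sequence runs 5′ to 3′ on the gene's strand up to the last base before the start.
Hspa5, chr2:34771840-34772089, plus strand: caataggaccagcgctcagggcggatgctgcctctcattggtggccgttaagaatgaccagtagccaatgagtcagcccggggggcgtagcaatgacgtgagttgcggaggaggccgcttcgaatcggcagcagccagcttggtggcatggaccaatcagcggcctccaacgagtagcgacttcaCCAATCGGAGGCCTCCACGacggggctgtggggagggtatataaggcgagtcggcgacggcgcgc
Herpud1, chr8:94386179-94386428, plus strand: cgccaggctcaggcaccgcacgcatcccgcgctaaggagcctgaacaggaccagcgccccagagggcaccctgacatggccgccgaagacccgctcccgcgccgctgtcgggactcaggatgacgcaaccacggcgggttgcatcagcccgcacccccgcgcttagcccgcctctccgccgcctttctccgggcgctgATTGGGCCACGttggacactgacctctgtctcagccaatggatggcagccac
Creld2, chr15:88819396-88819645, plus strand: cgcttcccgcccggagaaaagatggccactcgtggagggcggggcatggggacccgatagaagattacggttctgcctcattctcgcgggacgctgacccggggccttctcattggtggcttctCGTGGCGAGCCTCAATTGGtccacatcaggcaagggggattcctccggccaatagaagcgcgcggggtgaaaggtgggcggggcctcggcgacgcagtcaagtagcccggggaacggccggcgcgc
Sdf2l1, chr16:17132384-17132633, minus strand: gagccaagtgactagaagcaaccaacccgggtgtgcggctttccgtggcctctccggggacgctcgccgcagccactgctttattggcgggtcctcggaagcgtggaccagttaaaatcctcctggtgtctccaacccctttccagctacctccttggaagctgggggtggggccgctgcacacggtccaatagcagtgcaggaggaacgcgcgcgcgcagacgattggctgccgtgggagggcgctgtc

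**Figure D1:**
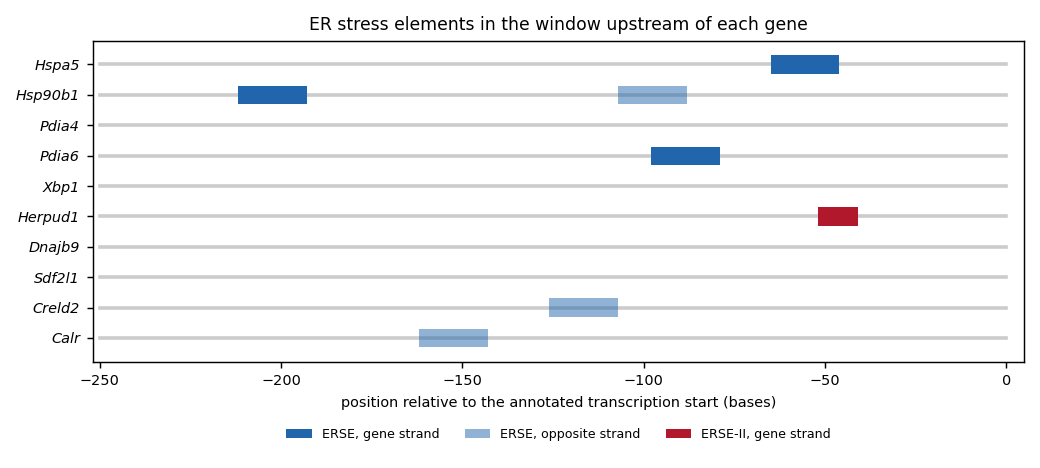
Positions of exact ERSE and ERSE-II matches in the 250 bases before the annotated start of each gene (horizontal axis, bases; 1 row per gene, in dark colour on the gene's strand and in pale colour on the opposite one). *Hsp90b1* has a pair of ERSE matches and 4 genes have no match.

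The comparison asks what banding of the aorta changes in a kidney that already works alone. None of the chaperone probe sets passed limma's test. Their differences were small: over the 20 probe sets that passed the filter on dim signals, the median log2 difference, cardio-renal minus uninephrectomy alone, was -0.0083, against -0.0002 for all 22519 probe sets tested. The largest on the higher side was 0.23 for *Sdf2l1* and the largest on the lower side was -0.34 for the dim probe set of *Pdia6*. Both cardio-renal arrays were higher with 8 of the 20, where 31.8% of all probe sets tested were, and lower with 4, where 29.7% were. The other 8 had the uninephrectomy signal between those of the cardio-renal arrays. The 21st, a second probe set of *Pdia4*, was below the filter and was not tested.

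Over all genes, 0 of 22519 probe sets passed limma's Benjamini-Hochberg adjusted p of 0.05 (0% called), and 627 had an unadjusted p under 0.05 (2.78%), 0 of them chaperone probe sets. The members' adjusted p was 0.9998 for each of the 20 in limma's fit. With 3 arrays, an exact permutation of the labels cannot give a p under 0.333. For each probe set, the fit draws the spread of the cardio-renal pair towards a trend over all probe sets tested. Its intervals can therefore be much wider than the SD of the pair. The fit also assumes that the lone uninephrectomy array varies like that pair. On the scale of the fit, log2(signal + 28.8), 0 of the 20 stood above the uninephrectomy array by 1.2-fold or more in both, against 5.6% of all probe sets tested, and 0 stood below it by as much, against 3.57%. The offset shrinks the difference of dim probe sets, and the dim *Pdia6* probe set, at -0.26 in array 1 and -0.43 in array 2, lay just short of the rule. The median absolute difference was 0.077 for the chaperone probe sets and 0.12 for all probe sets tested. Per gene, it ran from 0.0665 to 0.0912 in the folding, sensor, degradation and translocation lists described below, with 0 genes past the 1.2-fold rule. It was wider in the ATF4 arm, at 0.55. Median log2 signals were 13.3 for chaperone genes with an ERSE or ERSE-II and 11.6 without, against 9.49 for all genes with a window.

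Cardio-renal array 1 stood apart from the other arrays in sex-biased genes of the proximal tubule. The summed signal of 6 male-biased genes was 4778 on cardio-renal array 1 and 36949 on array 2, against 38958 on the uninephrectomy array, and that of 3 female-biased genes was 17829 and 6195, against 4740. Single genes departed on array 2 as well, with *Slc7a12* at 695, against 213, and *Akr1c18* at 492, against 1246. *Slco1a1*, *Acsm3* and *Abcc4* were close to the uninephrectomy array there. Values are therefore given for each cardio-renal array. Of the 20 chaperone probe sets, 9 were lower than on the uninephrectomy array in array 1 and 7 in array 2, where 46.4% and 51.4% of all probe sets tested were. The median differences in arrays 1 and 2 were 0.015 and 0.034, against 0.020 and -0.0061 for all probe sets tested. Of 7 heart muscle markers listed, 4 passed the filter, all of them higher in both cardio-renal arrays, where 30.6% of all genes were. The filter shaped this count, because *Actc1*, *Myh6* and *Myl2* passed it only through their cardio-renal signals. On the uninephrectomy array they read 72.7, 9.93 and 55.9. Summed signals over the 7 were 2038 and 1483, against 313. None of the 7 was at 0, but *Tnni3* and *Mb* read only 1.97 and 3.81 on the uninephrectomy array, and no detection calls were used. Fibroblast markers summed to 8090 and 5475, against 8638. Of the 5 genes 4 were lower in both, where 29.8% of all genes were. Their log2 differences ran from -0.133 to -0.059 in array 1 and from -0.905 to -0.519 in array 2. The other gene, *Col1a1*, was at 0.287 and -0.406. The 3'/5' ratio of the actin control was 1.72 and 1.73, against 1.72. The part of these in the chaperone values was not tested. Kidney markers were present on every array, with sums of 5 proximal tubule genes of 58258 and 64589, against 63093. In whole kidney, fewer cells of a type and less RNA per cell cannot be told apart.

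*Hspa5* encodes BiP, the ER's HSP70 chaperone and the protein that holds the stress sensors inactive. Its brightest probe set, 1416064_a_at, had MAS5 signals of 12753 and 14778 in the cardio-renal arrays, against 14926 in the uninephrectomy array. Array 2 was close to the uninephrectomy array and array 1 was below both. The mean log2 difference was -0.12 ± 0.15 (SD, n = 2), with a 95% interval of -0.56 to 0.32 in limma's fit. The probe set 1427464_s_at had 10738 and 10891, against 10832, and the dimmer 1447824_x_at 1279 and 1214, against 1271, so that with both the uninephrectomy array lay between the cardio-renal arrays. In the ID of a probe set, _a marks probes shared by transcripts of 1 gene, _s probes that may be shared by several genes and _x probes that may cross-hybridise.

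*Hsp90b1* encodes GRP94, the HSP90 chaperone of the ER, which folds integrins and Toll-like receptors. Its brighter probe set, 1415889_a_at, had 12565 and 11513 in the cardio-renal arrays, against 10595 with uninephrectomy alone. Both cardio-renal values were above, by 0.18 ± 0.09 (SD, n = 2) on the log2 scale, with an interval of -0.23 to 0.60. The second probe set, 1438040_a_at, did not share this, with 5874 and 6103, against 6085, and a mean log2 difference of -0.02.

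*Calr* encodes calreticulin, a calcium-binding lectin that holds newly glycosylated proteins in the ER. Its probe set 1417606_a_at had 10272 and 12094 in the cardio-renal arrays, against 11843. As with the brightest probe set of *Hspa5*, array 1 was the lowest of the 3. The 2 other probe sets had 7324 and 8146, against 7831, and 6032 and 6347, against 6483. Array 1 was the lowest with all 3, and the mean log2 differences ran from -0.09 to -0.02.

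*Pdia4* and *Pdia6* encode disulphide isomerases, which form and rearrange disulphide bonds in client proteins, and PDIA6 also acts on IRE1 signalling. *Pdia4* had 1556 and 1576 in the cardio-renal arrays, against 1534, with probe set 1416497_at, a log2 difference of 0.03 ± 0.01 (SD, n = 2). The uninephrectomy value was the lowest of the 3 by a small margin. The other *Pdia4* probe set, 1450620_at, had 43.3 and 29.7, against 9.81, all below the filter. Its difference of 0.75 on the log2 scale was not shared by the brighter probe set.

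*Pdia6* had 3400 and 3987 in the cardio-renal arrays, against 3219, with probe set 1423648_at. Both cardio-renal values were above, by 0.19 ± 0.16 (SD, n = 2), and array 2 was further from the uninephrectomy array than array 1. Its dim probe set, 1430983_at, ran the other way, with 154 and 133, against 189, a log2 difference of -0.34 ± 0.12 with an interval of -0.92 to 0.24. The probe sets of *Pdia6* therefore gave no common direction.

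**Figure D2:**
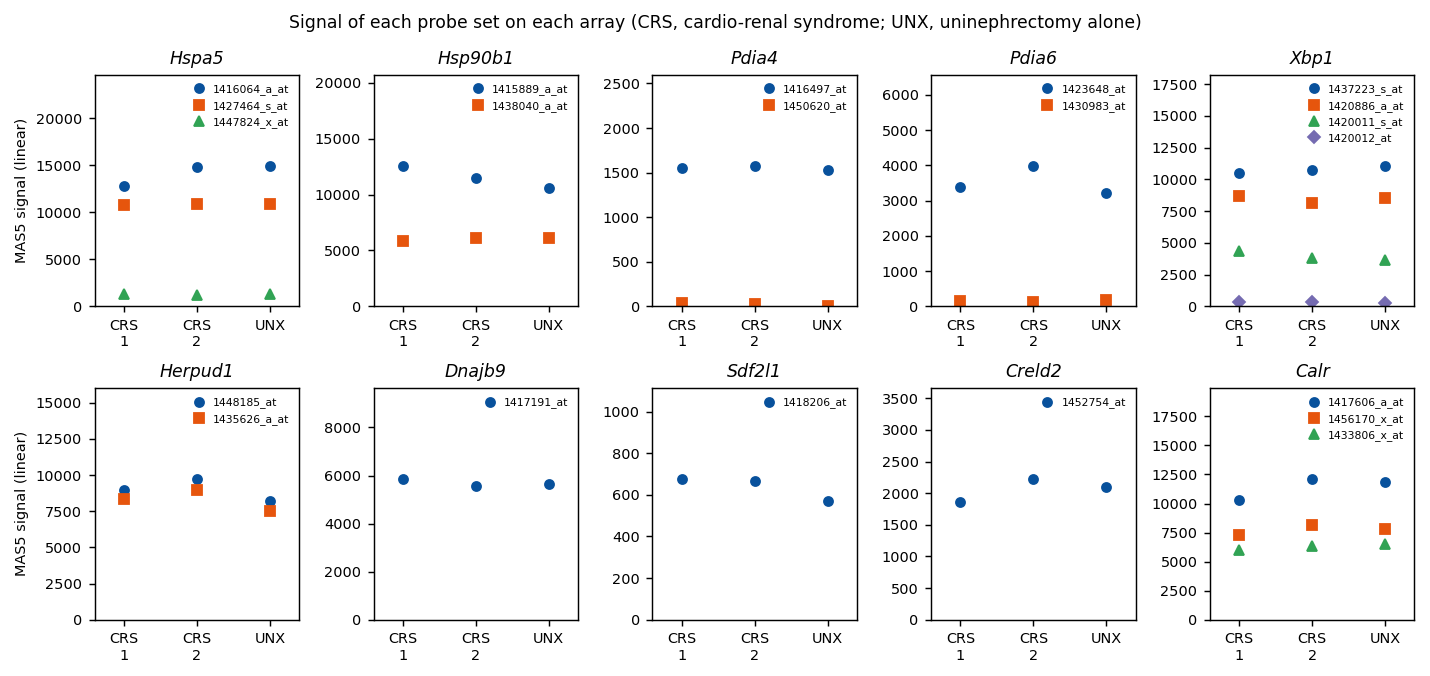
MAS5 signal (vertical axis, linear, from 0) of each probe set of the 10 genes on cardio-renal arrays 1 and 2 (CRS) and on the uninephrectomy array (UNX), with 1 panel per gene and 1 symbol per probe set. Both probe sets of *Herpud1* and that of *Sdf2l1* are higher in both cardio-renal arrays, while those of *Dnajb9* and *Creld2* have the uninephrectomy array between the cardio-renal arrays.

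The cofactors and smaller resident proteins had 1 probe set each. *Sdf2l1*, whose protein joins ER-resident J-domain proteins in keeping clients soluble, had 676 and 668 in the cardio-renal arrays, against 569 with uninephrectomy alone. The cardio-renal values were nearly equal and both above, by 0.23 ± 0.01 (SD, n = 2) on the log2 scale or 1.17-fold. The 95% interval was -0.20 to 0.65 and limma's unadjusted p was 0.251, so that the difference did not pass. *Dnajb9* encodes ERdj4, a J-domain partner of BiP that also restrains IRE1. It had 5848 and 5548 in the cardio-renal arrays, against 5651, with the uninephrectomy array between them. *Creld2*, a stress-inducible protein of the ER that can be secreted, had 1862 and 2222, against 2099, again with the uninephrectomy array between the cardio-renal arrays.

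*Herpud1* encodes a ubiquitin-like membrane protein that assists ER-associated degradation. Its probe set 1448185_at had 8970 and 9718 in the cardio-renal arrays, against 8209, and 1435626_a_at had 8339 and 8959, against 7488. Both cardio-renal arrays were above with either probe set, and array 2 was the highest with either. The mean log2 differences were 0.18 ± 0.08 and 0.21 ± 0.07 (SD, n = 2), with intervals of -0.22 to 0.59 and -0.19 to 0.60 and unadjusted limma p-values of 0.321 and 0.267. Among the genes with more than 1 probe set that passed the filter, only *Herpud1* had every probe set on the same side of the uninephrectomy signal with either cardio-renal array.

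*Xbp1* encodes the transcription factor that IRE1 activates by removing a short intron from its mRNA. The array reads the 3' part of the transcript, so spliced and unspliced forms were not separated. Its probe set 1437223_s_at had 10515 and 10740 in the cardio-renal arrays, against 11068, and 1420886_a_at had 8700 and 8139, against 8498. The first was lower in both cardio-renal arrays and the second had the uninephrectomy array in between. The probe sets 1420011_s_at and 1420012_at were higher in both, with 4341 and 3832, against 3666, and with 362 and 334, against 297. The mean log2 differences of the 4 probe sets ran from -0.06 to 0.21, so the sign for *Xbp1* depended on the probe set.

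A further description sets each difference beside the gap between the cardio-renal arrays. In 7 of the 20 probe sets the cardio-renal arrays were both on the same side and nearer to each other than either was to the uninephrectomy array, where 27.9% of all probe sets tested were. These were the *Sdf2l1* probe set, both of *Herpud1*, 1416497_at of *Pdia4*, 1430983_at of *Pdia6*, and 1437223_s_at and 1420012_at of *Xbp1*, of which 1430983_at and 1437223_s_at lay on the lower side. The median gap between the cardio-renal arrays was 0.11 on the log2 scale for the chaperone probe sets and 0.17 for all probe sets tested.

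**Figure D3:**
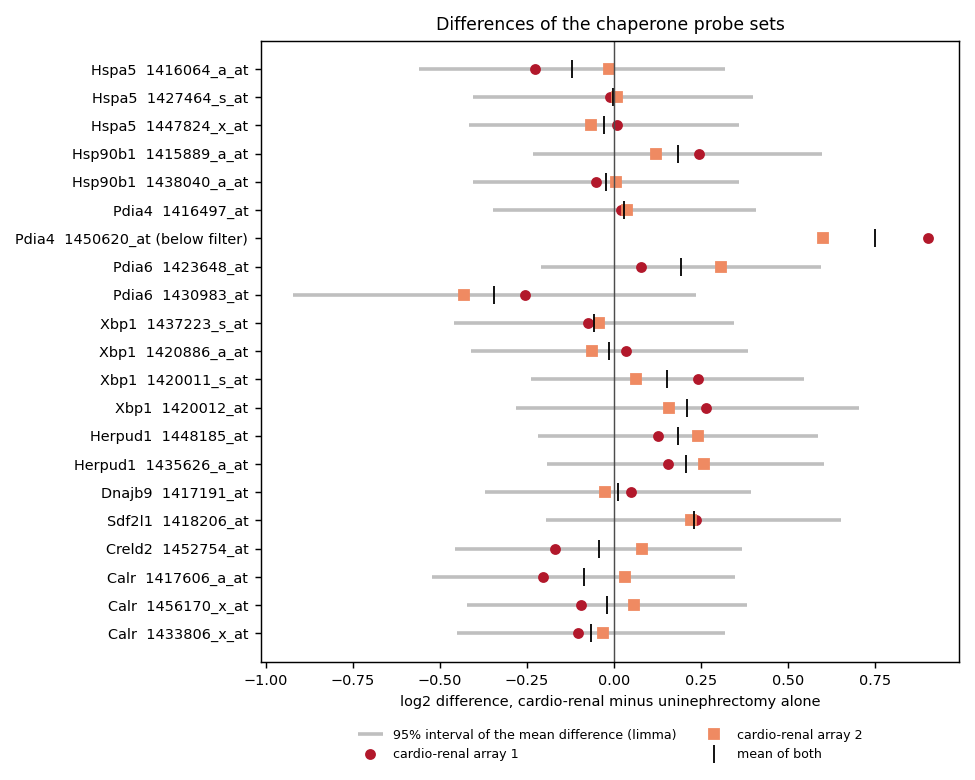
Log2 difference from the uninephrectomy array (horizontal axis) of each probe set (rows) for cardio-renal array 1 (circles) and array 2 (squares), with their mean (ticks) and limma's 95% interval (grey bars, for the 20 probe sets tested). All 20 intervals include 0, and the probe set of *Pdia4* below the filter has no interval.

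Other genes of ER folding and of the stress response were described with 1 probe set per gene, the one with the highest mean. Among the 10 chaperone genes read this way, both cardio-renal arrays were above for 5 and below for 2, against 30.6% and 29.8% of all 11146 genes, with a median log2 difference of 0.020. Of 19 other ER chaperones and folding enzymes that passed the filter, out of 20 listed, 5 were above with both and 7 below, with a median of -0.067. *Txndc11*, a thioredoxin-domain protein of the ER, had 426 and 530 in the cardio-renal arrays, against 628, a log2 difference of -0.38 ± 0.21 (SD, n = 2). *Sil1*, the nucleotide exchange factor of BiP, had 678 and 771, against 863, and *Fkbp2*, a prolyl isomerase, had 2400 and 2774, against 2244. None of the 3 had an unadjusted limma p under 0.05.

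The genes that sense stress or dispose of misfolded proteins had medians close to 0 as well. Of 8 sensor genes and their proteases that passed the filter, out of 9 listed, 1 was above in both and 4 below, with a median log2 difference of -0.015. *Mbtps2*, the site-2 protease that cuts ATF6, had 1031 and 1070, against 1171. *Ern1*, which encodes IRE1, had 618 and 719, against 732. Of 15 genes of ER-associated degradation, out of 16 listed, 2 were higher in both and 6 lower, with a median of -0.055; *Os9*, a lectin that delivers misfolded glycoproteins, had 1605 and 1611, against 1427. Of 15 genes of translocation into the ER, out of 16 listed, 2 were higher in both and 8 lower, with a median of -0.033. Beside the counts of these lists, 30.6% of all genes were higher in both and 29.8% lower. *Srprb*, a subunit of the signal recognition particle receptor, had 317 and 356, against 407, and *Spcs2*, a signal peptidase subunit, had 3117 and 2858, against 2557. None of the genes in these lists had an unadjusted limma p under 0.05, where 2.63% of all genes did.

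The ATF4 arm, which PERK shares with amino acid shortage and other stresses, showed wider differences than the chaperones. Of its 10 genes that passed the filter, out of 11 listed, 3 were above in both and 6 below, against 30.6% and 29.8% of all genes. By 1.2-fold or more in both, 5 of the 10 were below, against 2.98% of all genes, and 1 of the 10 was above, against 4.71%. An unadjusted limma p under 0.05 was found for 5 of the 10, against 2.63% of all genes. This list was chosen with earlier results of these data known. The median absolute difference was 0.55 on the log2 scale, against 0.10 for the chaperone genes and 0.11 for all genes. *Asns*, asparagine synthetase, had 247 and 218 in the cardio-renal arrays, against 441, and *Ddit3*, which encodes CHOP, had 713 and 630, against 1045. *Sesn2*, a sestrin, had 589 and 473, against 319. Their adjusted p in limma's fit was 0.9998, so that none passed, and the difference between this list and the chaperones was not tested.

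**Figure D4:**
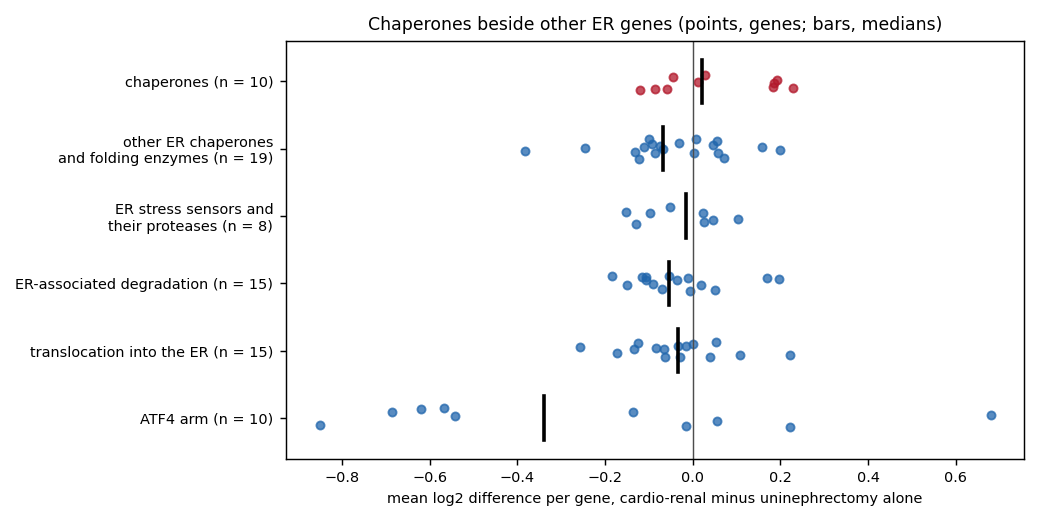
Mean log2 difference per gene, cardio-renal minus uninephrectomy alone (horizontal axis), for the chaperone genes and 5 lists of related genes (rows; points are genes with their brightest probe set, bars are medians). The chaperone genes lie between -0.12 and 0.23, and genes of the ATF4 arm between -0.85 and 0.68.

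Markers of secretory cells, in which these chaperones are abundant, were also read. Of 6 plasma cell markers 3 passed the filter, 2 of them higher in both cardio-renal arrays, where 30.6% of all genes were. The summed signals over all 6 were 1447 and 1000, against 1094. *Jchain*, the joining chain of immunoglobulins, had 733 and 326, against 532. Of the 5 pancreatic acinar markers with a probe set, *Cela1* alone passed the filter, with 6630 and 6531, against 6331; the others reached at most 53.0, for *Ctrb1* on the uninephrectomy array. None of these markers was at 0, but without detection calls a dim signal does not show that a gene was expressed. *Cela2a* had 4.07 and 13.3, against 4.30. The part of these markers in the chaperone values was not tested.

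The genes with an ERSE or ERSE-II differed among themselves in direction. In cardio-renal array 1 the 6 genes ranged from -0.23 for *Hspa5* to 0.25 for *Hsp90b1* on the log2 scale, and in array 2 from -0.01 for *Hspa5* to 0.31 for *Pdia6*. The 4 genes without ranged from -0.07 to 0.24 in array 1 and from -0.04 to 0.22 in array 2, so the ranges overlapped. Of the other lists, *Canx*, *Dnajc3* and *Ero1b* among 17 folding genes with a window and *Syvn1* and *Derl3* among 12 degradation genes held an element. The counts were 0 of 7 for sensor, 0 of 12 for translocation and 0 of 11 for ATF4 arm genes. Over all 27025 genes with a window 45 held an element (0.167%), so a count of 0 in a short list carries no contrast.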

How the data were processed

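Kidney RNA of 3 samples was hybridised to 1-colour Affymetrix 3' arrays, 1 per sample. The deposited numbers are linear intensities, 1 MAS5 signal per probe set, and the submitters' processing notes name MAS5 without a version. Each array's mean trimmed by 2% at each end was 500, so the arrays were not scaled again. Because MAS5 subtracts mismatch signal, dim values are noisy, and no detection calls were used. The number of arrays limits the precision.

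Probe sets were named from the platform annotation, with symbols updated through the Entrez ID in a RefSeq table of GRCm38.p6: 34945 had 1 symbol, 932 several, 9160 were unnamed and 64 were controls, which were left out. Intensities became log2(value + 28.8), where 28.8 is the middle of the arrays' 25th percentiles. Probe sets whose mean reached 7.01, the median of all, were tested (22519) with limma 3.58.1 in R 4.3.3 (lmFit, eBayes with a mean-variance trend, two-sided, Benjamini-Hochberg over all), with 1 residual degree of freedom. The fit was tested on simulated data. Upstream windows came from RefSeq, GRCm38.p6, and were searched for exact motif matches.

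The members and gene lists were chosen with earlier results of these data known. The rule named every member probe set, up to 3 genes per other pathway list ranked by the smaller of both arrays' differences, and any marker; *Ern1* was named after its values were seen. The 1.2-fold rule, the gap rule and the motifs were chosen after the values were seen. Alternatives were the offset, filter, normalization, probe sets per gene, shared-sequence probe sets, variance model and leaving out a cardio-renal array.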

Additional observations from a re-analysis of the deposited data

How the results depend on the processing

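Under no setting did a chaperone probe set pass limma's adjusted p of 0.05. Without shared-sequence probe sets 3 probe sets outside the chaperones passed (those of the heart genes *Actc1* and *Myh6* and 1 unnamed here, looked up after the count was seen), against 0 in the fit reported and in the 9 other fits. Without the filter, 1 chaperone probe set had an unadjusted p under 0.05, the dim one of *Pdia4*. With 1 probe set per gene, or the mean of a gene's probe sets, both cardio-renal arrays were above for 5 chaperone genes and below for 2, with medians of 0.020 and 0.042; fewer features enter by construction. Without shared-sequence probe sets 8 chaperone probe sets remained for the test and none of *Hspa5*, *Hsp90b1* or *Calr*; 5 were higher and 1 lower, with a median of 0.11, and quantile normalization gave a median of 0.015. Leaving out a cardio-renal array gives a value with no test: the probe sets higher numbered 11 to 13, those lower 7 to 9, and the median ran from 0.015 to 0.034. Without array 1, *Dnajb9* turned to -0.03, *Creld2* to 0.08 and *Calr* to 0.03. Of 97 single-gene values in the fits with all arrays, 94 kept their sign. Many could not have changed, since the filter, the variance model and the choice of the brightest probe set leave the value as it was. With the mean of probe sets *Pdia4* moved to 0.39, *Hspa5* to -0.05 and *Hsp90b1* to 0.08. *Pdia6* turned to -0.076 and *Xbp1* to 0.073 with the mean of probe sets, and *Xbp1* to 0.21 without shared-sequence probe sets; their probe sets differ in sign. No paired analysis was possible because the labels give no replicate numbers and 1 group has 1 array.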

Other observations

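The gap between the cardio-renal arrays, noticed after the values were seen, was wider in the chaperone genes with an ERSE or ERSE-II than in those without when each gene was read with its brightest probe set, but not over all their probe sets. With the brightest it ran from 0.12 to 0.25 on the log2 scale in the 6 genes with an element and from 0.02 to 0.08 in the 4 without, with medians of 0.22 and 0.024. Among the other probe sets, the gap was 0.02 and 0.07 for *Hspa5*, 0.06 for *Hsp90b1* and 0.07 for a *Calr* probe set, all with an element, and 0.18, 0.11 and 0.10 for *Xbp1*, without one, so the ranges overlap. With the brightest probe set, array 1 was below array 2 in 5 of the 6, *Hsp90b1* being the exception, and in 4298 of all 9075 genes with a window. The second probe set of *Pdia6* and the dimmest of *Hspa5* ran the other way. The 15 other genes with an element that passed the filter had a median gap of 0.20, with array 1 below array 2 in 8, and the median gap over all genes with a window was 0.16. *Syvn1*, a ubiquitin ligase of ER-associated degradation with an element, had 1824 and 2267 in cardio-renal arrays 1 and 2, against 2168 in the uninephrectomy array. Wide gaps were also seen for 2 genes not among those in which an element was found. *Hyou1*, an ER chaperone of the HSP110 family, had 1056 and 1513, against 1293. *Edem1*, a lectin-like protein of glycoprotein degradation whose window held no exact element, had 1102 and 1882, against 1640. These genes were picked for their gaps, no test was made, and array 1 also stood apart in sex-biased genes.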
